A study of Mus musculus with 4 samples.

Results

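Calb2 is the gene of calretinin, and it was followed here as 1 of the 22399 genes counted in single-cell RNA libraries of the mouse main olfactory epithelium. It was chosen because its transcript level changed with the stage of the neuron and with the odorant receptor the neuron had chosen, so its levels by stage, by receptor and beside S100a5 and Gap43 are given as descriptions, with no test. The 4 libraries, 2 female and 2 male, came from wild type C57BL/6J mice at 3 months of age, and no group carried an allele or received a treatment. The tissue was dissociated with papain and captured with droplet chemistry that reads the 5′ end of transcripts. The labels do not say how many animals gave each library, and the p-values measure the spread between these libraries.

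Calretinin is an EF-hand protein of the cytosol that binds calcium with fast kinetics and so limits how far and how long a calcium signal spreads. In the olfactory system it is best known from interneurons of the bulb and from subsets of sensory neurons. Olfactory sensory neurons arise from basal progenitors, pass through a Neurod1-positive precursor and a Gap43-positive immature stage, and end as Omp-positive mature neurons. Each mature neuron transcribes mainly 1 odorant receptor gene (Olfr), and that choice sets where in the bulb its axon ends. S100a5, a small EF-hand protein, is a marker of mature sensory neurons whose level is known to follow their activity, and Gap43 is a growth-cone protein of growing axons.

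Calb2 (ENSMUSG00000003657) lies on the minus strand of chromosome 8, from 110137502 to 110168210 in GRCm38 coordinates of GENCODE M21, which is the assembly also called mm10. The annotation gives 2 protein-coding transcripts, each of 11 exons. They end in different coding exons, at chr8:110143084-110143200 for Calb2-201 and at chr8:110137780-110137809 for Calb2-202. These stretches are shown because counts per gene, read from the 5′ end, do not separate the 2 transcripts, so every value below is their sum. The stop codons are in capitals, and the strand is that of the gene.
last coding stretch, Calb2-201: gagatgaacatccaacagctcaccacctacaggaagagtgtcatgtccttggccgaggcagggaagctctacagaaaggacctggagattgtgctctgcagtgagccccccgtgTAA
last coding stretch, Calb2-202: gaggccagagagaaaacagagagccggTAG
The reading frames hold 813 and 726 bases, stop codon included.

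Depth lay between 100725429 and 111577458 UMIs per library (a UMI is 1 captured RNA molecule), and 8869 to 9339 barcodes per library passed the filters. Library pairs shared 126 to 149 barcode sequences, 1.29% to 1.51% of the smaller library. Levels are CPM, the UMIs of a gene per 1000000 UMIs of a group of barcodes in 1 library. Barcodes were gated by stage from their own counts. A barcode was Omp-positive with at least 5 Omp UMIs and 10 per 10000 UMIs, Gap43-positive with at least 3 UMIs and 5 per 10000, and Neurod1-positive, with neither of the others, with at least 3 UMIs. Omp-only barcodes made up 52.2% ± 1.42 (SD, n = 4) of all barcodes. Cyp2g1, an enzyme of sustentacular (supporting) cells, was at 279 ± 158 CPM in the Neurod1 gate, 1864 ± 543 in the Gap43 gate, 1271 ± 986 in the gate with both and 1704 ± 282 in the Omp-only gate (SD, n = 4), so RNA of those cells was present in the neuronal gates. Its part in the Calb2 levels was not tested, beyond leaving out barcodes with much Cyp2g1, which gave 1547 CPM of Calb2 in the Gap43 gate.

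Calb2 was nearly silent in Neurod1 precursors, high in immature neurons, highest in neurons that had both Omp and Gap43, and low again on average in neurons with Omp alone. In the Neurod1 gate (848 barcodes) Calb2 was at 8.05, 9.04, 13.1 and 14.7 CPM in female 1, female 2, male 1 and male 2. In the Gap43 gate (2216 barcodes) the libraries were at 1351, 1506, 1414 and 1469 CPM in the same order. In the gate with both genes (912 barcodes) they were at 2395, 2112, 1991 and 2211 CPM. In the Omp-only gate (18968 barcodes) they were at 342, 306, 284 and 258 CPM. The ranges of the 4 gates did not overlap. The means were 11.2 ± 3.18, 1435 ± 67.7, 2177 ± 171 and 297 ± 35.6 CPM (SD, n = 4). Within libraries the Gap43 gate was 136 ± 36.7 times the Neurod1 gate, the gate with both was 1.52 ± 0.174 times the Gap43 gate, and it was 7.37 ± 0.798 times the Omp-only gate (SD, n = 4). The Neurod1 values rest on 23 to 33 UMIs a library and are at the background given below. The ratio to that gate therefore does not measure how far Calb2 rose. S100a5 took another course, from 176 ± 36.8 CPM in the Neurod1 gate and 206 ± 49.6 in the Gap43 gate to 2701 ± 542 with both and 13882 ± 2710 with Omp alone (SD, n = 4).

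**Figure D1:**
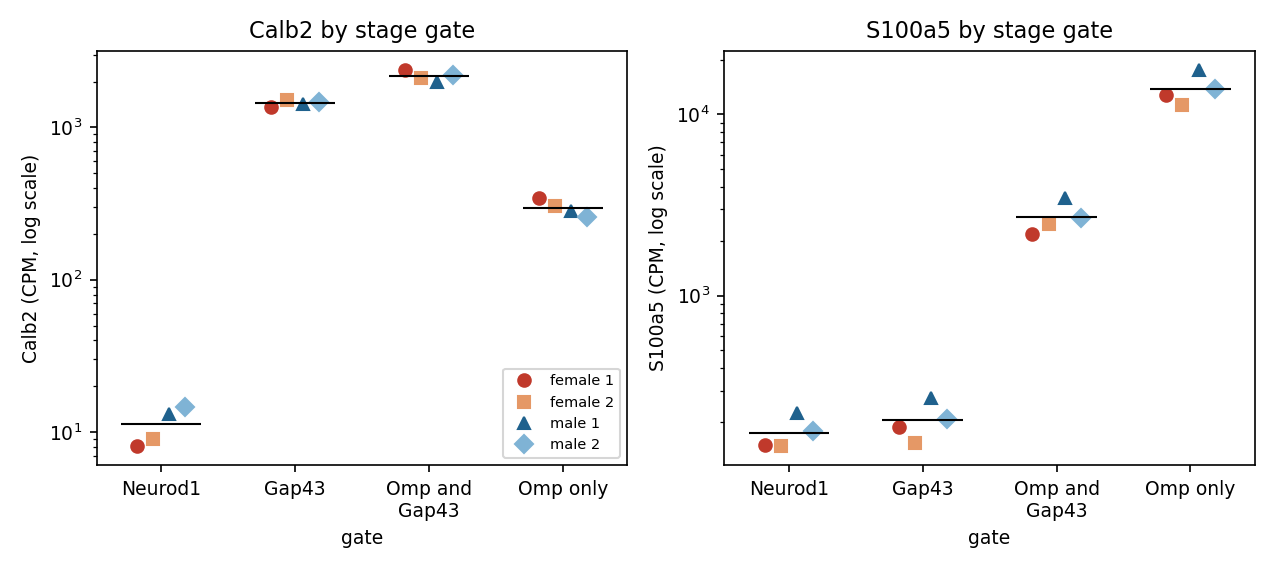
Calb2 (left) and S100a5 (right) in CPM on log axes, by stage gate, with 1 point per library and a line at the mean of the 4 libraries. Calb2 peaks in the gate with both Omp and Gap43, between 1991 and 2395 CPM, while S100a5 is highest in the Omp-only gate.

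The low mean of the Omp-only gate came from few barcodes with much Calb2 and many with none. No Calb2 UMI was seen in 77.0% ± 1.95 of Omp-only barcodes, while 8.44% ± 1.23 had 10 or more (SD, n = 4). The 10% of barcodes with the most Calb2 held 89.3% ± 2.61 of the Calb2 UMIs of that gate, against 31.4% ± 1.31 in the Gap43 gate and 22.7% ± 0.382 in the gate with both (SD, n = 4). In the Gap43 gate 12.01% ± 0.541 of barcodes had no Calb2 UMI and 55.1% ± 2.08 had at least 10, and with both genes these shares were 4.28% ± 1.24 and 84.5% ± 1.02 (SD, n = 4). Calb2 in immature neurons was thus spread over most barcodes, and in Omp-only neurons it was held by a minority.

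Sustentacular-like barcodes gave the background, since these cells are not neurons. Calb2 was at 15.5 ± 1.77 CPM there (SD, n = 4), and 15.1% of the 5336 barcodes had a UMI at a median depth of 13549.5 UMIs. In the Neurod1 gate 9.20% of barcodes had a UMI at a median depth of 10923.5 UMIs, so the precursor level was at the background. After each barcode was thinned to 2000 UMIs the share was 2.44% in sustentacular-like barcodes and 2.85% ± 0.970 in the Neurod1 gate, against 73.6% ± 1.75 in the Gap43 gate, 89.5% ± 1.38 with both genes and 15.5% ± 1.68 in the Omp-only gate (SD, n = 4). Thinning left out 1, 5, 15, 1 and 804 shallower barcodes of these groups. Before thinning, 88.0%, 95.7% and 22.9% of the barcodes of the last 3 gates had a UMI, at median depths of 10657, 13015.5 and 7919.

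Barcodes were also clustered by genes from which Calb2, S100a5 and the receptor genes had been kept out, and the neuronal clusters had unlike Calb2 levels, described here by number and leading genes. Cluster 10, led by Tex15 and Crabp1, had 156 ± 21.8 CPM, and cluster 7, led by Gap43 and Prph, had 1795 ± 73.1 CPM (SD, n = 4). Cluster 5 (Avp, Calb2, Mfge8 and Stmn4) had 1272 ± 55.7 CPM and cluster 9 (Slurp2, B830017H08Rik, Taar7a, Necab3 and Entpd2) had 1687 ± 83.1 CPM (SD, n = 4). Cluster 6, led by Avp, Fxyd2, S100a5 and Pcp4l1, had 8.04 ± 1.28 CPM (SD, n = 4), with S100a5 at 34009 CPM. S100a5 was at 10215 CPM in cluster 5 and at 1913 CPM in cluster 9, so these clusters differed from each other in S100a5 although both were rich in Calb2. Clusters 12 and 28 held Cyp2g1 at 11774 and 10566 CPM and stayed unnamed.

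The sexes were compared as an independent measure. In the Omp-only gate Calb2 was lower in both males (284 and 258 CPM) than in both females (342 and 306 CPM), and the groups did not overlap. The log2 fold change of male over female was -0.23 (SE 0.08), with a p of 0.0472 in edgeR's quasi-likelihood F test and an adjusted p of 0.9998 (Benjamini-Hochberg, over all genes). The exact two-sided permutation test gave p 0.333, which is the smallest that 2 libraries against 2 can give, and 0.667 after adjustment over the 4 gates. In this comparison 3 of 14373 genes (0.0209%) passed the threshold of an adjusted p of 0.05, 639 had an unadjusted p under 0.05, and DESeq2 called 219. In the Gap43 gate the female and male ranges overlapped, at 1351 and 1506 against 1414 and 1469 CPM. The log2 fold change was 0.06 (edgeR adjusted p 0.897), where 24 of 12473 genes (0.192%) passed and DESeq2 called 63. In the Neurod1 gate both males, at 13.1 and 14.7 CPM, lay above both females, at 8.05 and 9.04 CPM, all near the background (exact permutation p 0.333). The difference between the sexes did not itself differ detectably between the Omp-only and Gap43 gates. Its interaction with stage was -0.28 on the log2 scale (p 0.122, edgeR adjusted p 1), and 0 of 14881 genes (0%) passed, with 515 at an unadjusted p under 0.05 and 25 by DESeq2.

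Calb2 was then set beside 64 other genes of calcium handling and 23 axon genes, lists chosen with earlier results of these data known. The axon list also holds Pcp4l1, a small IQ-motif protein, and Nqo1, used below as a marker of the dorsal zone. Axon genes below are thus members of that list, not all of them genes of axon growth or guidance. Between the Gap43 and Omp-only gates, 5500 of 14881 genes (37%) were higher and 4889 (32.9%) lower in Omp-only barcodes by edgeR at an adjusted p of 0.05. Without TMM scaling, which moved the median log2 fold change of all genes by 0.286, the calls were 3899 higher and 7201 lower. Calb2 itself, which had been chosen for its course, had a log2 fold change of -1.99 (SE 0.09), given with no test. Of the 57 other calcium genes tested, 29 were higher and 22 lower, with a median log2 fold change of 0.32 against 0.02 over all genes. Without TMM scaling 28 were higher and 26 lower.

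Of 22 calcium buffers and sensors tested, 10 were higher and 9 lower in Omp-only barcodes. Those that fell with Calb2 included its closest relative Calb1, from 4.78 ± 0.9995 to 0.514 ± 0.144 CPM, and Kcnip3, a calcium sensor also called DREAM, from 10.4 ± 1.94 to 0.358 ± 0.118 CPM (SD, n = 4). Scgn, the EF-hand protein secretagogin, went the other way, from 2.55 ± 0.412 to 79.3 ± 10.3 CPM (SD, n = 4, log2 fold change 5.24, SE 0.07, edgeR adjusted p 5.44e-08).

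Of 14 calcium targets, enzymes switched by calcium, 5 were higher and 8 lower. Ppp3ca, a catalytic subunit of calcineurin, fell from 246 ± 4.10 to 147 ± 5.18 CPM (SD, n = 4, log2 fold change -0.45, edgeR adjusted p 7.07e-05). The gene of a regulatory subunit, Ppp3r1, fell from 128 ± 7.13 to 57.6 ± 1.58 CPM (SD, n = 4, edgeR adjusted p 1.70e-06). Pde1c, a calcium-dependent phosphodiesterase of olfactory cilia, rose from 124 ± 9.52 to 999.5 ± 36.1 CPM (SD, n = 4, edgeR adjusted p 8.22e-08).

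Of 21 channels and transporters, 14 were higher and 5 lower, and the higher ones included the genes of olfactory transduction. Cnga4, a subunit of the cyclic nucleotide-gated channel, rose from 20.4 ± 2.33 to 515 ± 10.4 CPM (SD, n = 4). The exchanger genes Slc8a1 and Slc24a4, which clear calcium from the cell, rose by 4.29 (SE 0.06) and 3.73 (SE 0.07) on the log2 scale (edgeR adjusted p 5.44e-08 and 2.03e-07). Another exchanger gene, Slc8a3, was lower at 0.0191 ± 0.0127 against 0.559 ± 0.545 CPM (SD, n = 4), levels of a few UMIs. Of the 23 axon genes, 15 were higher and 7 lower, with the largest changes in Epha5 (4.45, SE 0.07), Pcp4l1 (3.90, SE 0.05), Nqo1 (3.38, SE 0.12) and Bdnf (-3.27, SE 0.45), on the log2 scale.

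Calb2 differed widely between neurons of different receptors. A receptor was assigned where its gene had at least 3 UMIs and 80% of the Olfr UMIs of a barcode, which held for 17366 of 19880 Omp-positive barcodes (87.4%) and 953 receptors. With at least 10 barcodes in every library, 63 receptors and 5625 barcodes entered, and all 63 were class II receptors, the larger of the 2 classes by sequence. Mean Calb2 over the 4 libraries ranged from 17.6 CPM for Olfr211 to 3730 CPM for Olfr1507, a 212-fold range, with a median of 186 CPM. Of these receptors 15 were under 100 CPM, 39 between 100 and 500, 4 between 500 and 1000 and 5 over 1000. In the Omp-only barcodes of the same receptors these counts were 41, 16, 1 and 5, with a median of 55.4 CPM. Below the 5 highest, 46 of 58 receptors were lower by over 1.5 times in Omp-only barcodes, among them Olfr330, at 918 CPM in all Omp-positive and 197 CPM in Omp-only barcodes, and Olfr15, at 292 and 34.4 CPM, both named after their values were seen.

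The 5 receptors over 1000 CPM were so in every library. Olfr1507 had 3891, 3695, 3728 and 3605 CPM in female 1, female 2, male 1 and male 2. Olfr1178 had 2765, 2329, 1922 and 2216 CPM, and Olfr728 had 2108, 2032, 1706 and 1888 CPM. Olfr195 had 2403, 2043, 1738 and 1495 CPM, and Olfr1110 had 1537, 1834, 1564 and 2269 CPM. Olfr1507 lay above the other 4 in every library, and the ranges of those 4 overlapped. Neurons of these 5 receptors were 10.4% of the 5625 barcodes and held 61.3% of their Calb2 UMIs, and between 93.7% and 100% of them had a Calb2 UMI. In Omp-only barcodes, which can still hold a few Gap43 UMIs, these receptors had 3752, 1946, 1926, 1787 and 1718 CPM. Olfr1213, the sixth, had 1145, 676, 793 and 941 CPM, with a mean of 640 CPM in Omp-only barcodes.

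At the low end, Olfr211 had 12.2, 17.4, 25.3 and 15.4 CPM, which is close to the sustentacular background of 15.5 CPM. Olfr1509 had 0, 80.6, 0 and 5.65 CPM and Olfr1415 had 0, 244, 0 and 0 CPM, with 87.5% and 88.5% of their Calb2 UMIs in 1 barcode. Olfr730 (0, 9.36, 18.4 and 106.4 CPM), Olfr720 (168, 0, 16.4 and 14.1 CPM) and Olfr711 (0, 0, 121 and 79.8 CPM) likewise varied between libraries. A library stood at 0 for 19 of the 63 receptors. The SD of mean log2 CPM between receptors was 1.69, and the median SD between libraries of a receptor was 1.51 on the same scale. Of 62 neighbours in the order, 2 pairs had ranges that did not overlap, so that most of the order was not resolved.

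**Figure D2:**
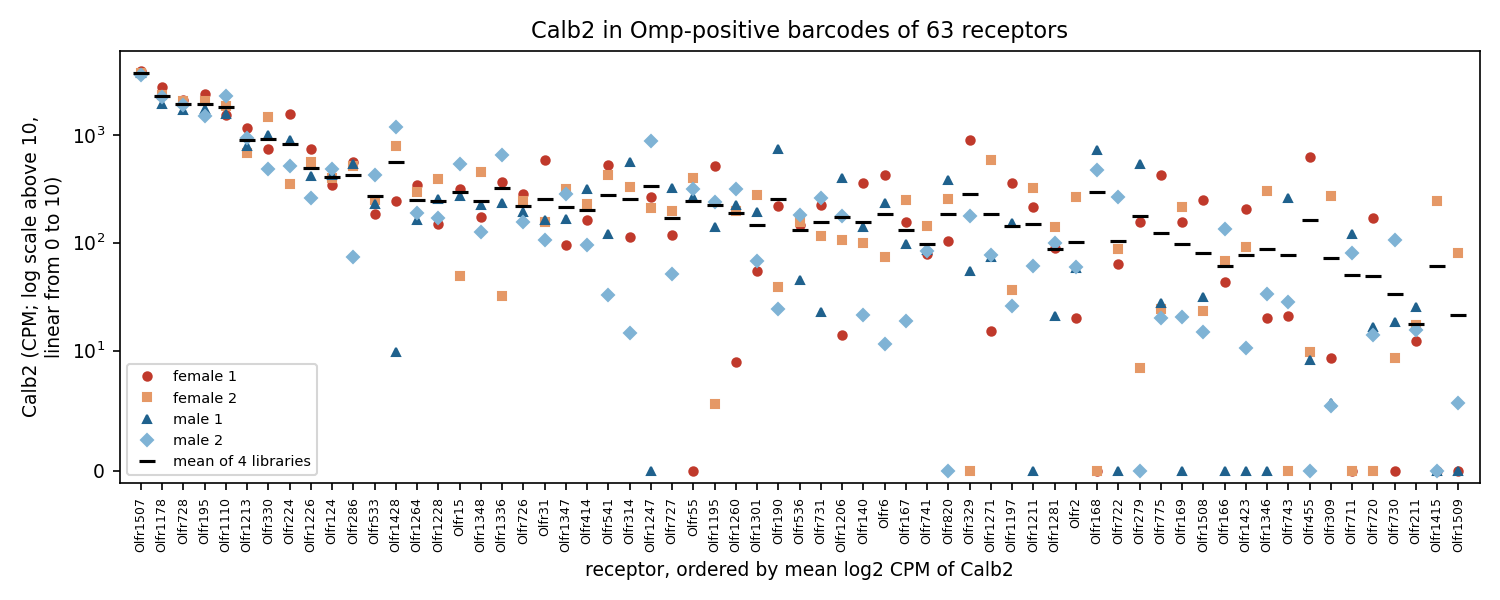
Calb2 in CPM for 63 receptors ordered by mean log2 CPM, with 1 point per library and a bar at the mean (log axis above 10 CPM, linear from 0 to 10). The first 5 receptors lie above 1000 CPM in every library, and 19 receptors have a library at 0.

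Receptors encoded near each other could be far apart in Calb2. Olfr1507 and Olfr1508 start 29962 bases apart on chromosome 14, and Olfr1508 neurons had 79.7 CPM (14.8 to 249 over libraries) against 3730 CPM (3605 to 3891). Olfr1509, in the same cluster, had 21.6 CPM. Olfr727, Olfr728 and Olfr730, also on chromosome 14, had 171, 1934 and 33.5 CPM, and the range of Olfr728 overlapped with neither of the others. On chromosome 16, Olfr190 had 255 CPM (24.3 to 740) and Olfr195, which starts 79906 bases away, had 1920 CPM (1495 to 2403). These examples were picked because each includes a receptor of the 5 highest in Calb2. Of 26 neighbouring pairs within 100000 bases, 6 had ranges that did not overlap. The share over all pairs of the 63 receptors was not computed. The count therefore does not show whether neighbours differ more or less than other pairs. Similar receptors can share reads, so that the assignment of close relatives is less certain than that of others.

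The 8 receptors with exactly 10 barcodes in their smallest library had a median of 307 CPM (148 to 1963), and the 9 receptors with 9 had a median of 160 CPM (56.4 to 875) and did not enter.

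Other calcium genes also differed between receptors, which was tested for genes other than Calb2 and S100a5. By edgeR's F test over the 63 receptors with the library as a block, 3404 of 10008 genes (34%) passed an adjusted p of 0.05, and 33 of 39 calcium genes and 21 of 21 axon genes did so. The median F was 3.15 for the calcium genes and 12.1 for the axon genes, against 1.24 over all genes. Among the calcium genes the largest F were those of Necab1 (35.0), a neuronal EF-hand protein, Ano2 (25.1), the calcium-activated chloride channel of olfactory cilia, Scgn (25.1), Pde1c (23.7) and Slc8a1 (21.7), with edgeR adjusted p between 2.88e-80 and 7.12e-62. Among the axon genes they were those of Pcp4l1 (70.9), Kirrel3 (47.3), Kirrel2 (35.2) and Nrp1 (30.8). The SD between receptors in this fit was 1.69 for Calb2, 1.71 for Pcp4l1, 1.48 for Kirrel3 and 1.37 for Necab1, on the log2 scale.

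Calb2 was high where S100a5 was low. In the 5 receptors highest in Calb2, mean S100a5 lay between 427 and 1956 CPM, while the other 58 ranged from 652 to 35604 CPM with a median of 13123 CPM. Both limits of the 5 rested on 1 library. S100a5 of Olfr1178 ran from 656 to 5652 CPM over libraries, and its mean was 724 CPM without the highest, and S100a5 of Olfr1507 ran from 226 to 990.5 CPM, with a mean of 239 CPM without the highest. Olfr1213, the receptor with 652 CPM of S100a5, was the sixth highest in Calb2. To keep shared counting error out, Calb2 of the summed females was set against S100a5 of the summed males and the reverse, and both were averaged. Pearson's r was -0.69 and Spearman's rho -0.64 over the 63 receptors, and single female and male libraries gave r between -0.72 and -0.53 in 8 pairs. Without the 5 highest receptors r was -0.52 and rho -0.55 over 58 receptors. The receptors of a library share its depth, and neurons of some receptors share a zone of the epithelium.

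The receptors that had too few barcodes for the 63 showed the same pairing of levels. Among 142 such receptors, with at least 10 barcodes in the females and in the males together, r was -0.62 and rho -0.53, measured in the same way. Calb2 was over 1000 CPM in 11 of them, and S100a5 was between 288 and 2167 CPM in these 11, against a median of 11899 CPM in the others. S100a5 was under 1000 CPM in 11 receptors, 9 of which were also over 1000 CPM in Calb2, and the lowest Calb2 among those 11 was 669 CPM.

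**Figure D3:**
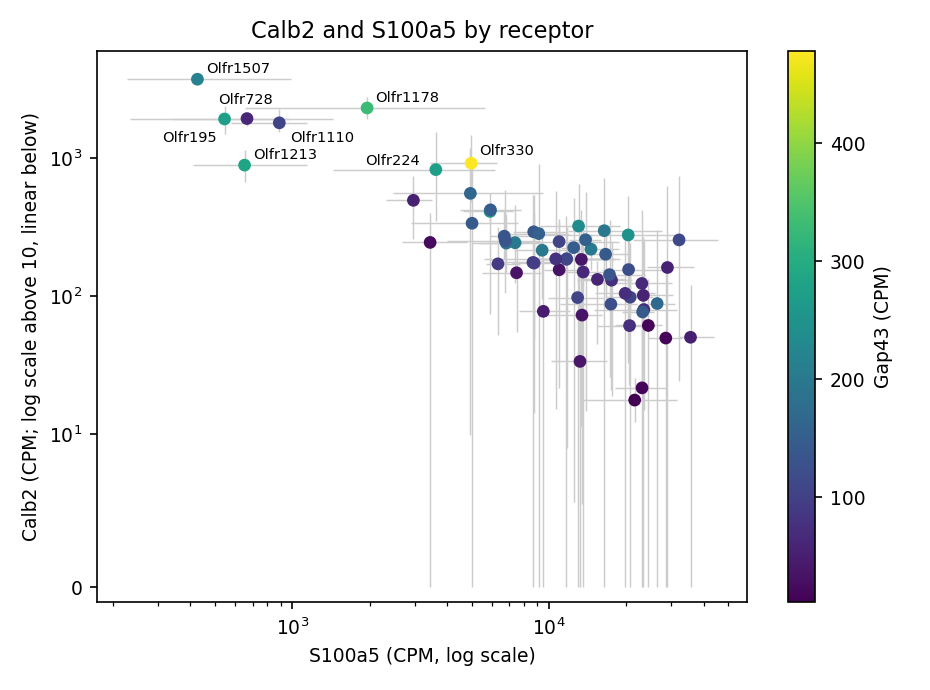
Mean Calb2 against mean S100a5 in CPM for 63 receptors (log axes, Calb2 linear below 10), with lines from the lowest to the highest library and colour for mean Gap43 in CPM. The 5 receptors highest in Calb2 lie at 427 to 1956 CPM of S100a5, at the left.

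Gap43 followed Calb2 less closely over receptors. Pearson's r was 0.23 and rho 0.30 over the 63 receptors, 0.17 and 0.26 without the 5 highest, and 0.27 and 0.25 over the 142 others. In Omp-only barcodes r was 0.024, over 55 receptors. That gate leaves out Gap43-positive barcodes and so narrows the range of Gap43 by definition. The low r therefore does not show that the relation is absent there. In the 5 highest receptors mean Gap43 ran from 65.3 to 331 CPM, and in the others from 11.1 to 479 CPM. Olfr728 had 65.3 CPM of Gap43 with 1934 CPM of Calb2, and Olfr330 had the highest Gap43, 479 CPM, with 918 CPM of Calb2. Calb2 of females with Calb2 of males, a measure of how well a receptor's level repeated, gave r 0.50 and rho 0.54. Omp had an r of -0.09.

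The genes most like Calb2 over receptors, by the same r among 6484 genes, were Ppp3ca (0.61), Entpd2 (0.60), Ppp3r1 (0.57), Rims3 (0.56), Sgpl1 (0.56), B830017H08Rik (0.54), Dcdc2a (0.53) and Sh3glb2 (0.53). Ppp3ca and Ppp3r1 encode a catalytic and a regulatory subunit of calcineurin, the calcium-dependent phosphatase. Ppp3cb, another catalytic subunit gene on the list, had an r of only 0.06. It did not pass the test over receptors (F 1.04, edgeR adjusted p 0.582). Ppp3ca was at 410 ± 52.7 CPM in neurons of the 5 highest Calb2 receptors and at 138 ± 2.75 CPM in those of the other 58, and Ppp3r1 was at 110 ± 6.68 against 54.9 ± 2.32 CPM (SD, n = 4). Rims3, a protein of the presynaptic active zone, was at 236 ± 35.1 against 57.4 ± 5.55 CPM, and Entpd2, an ectonucleotidase, at 99.9 ± 7.10 against 24.1 ± 1.04 CPM (SD, n = 4). These 4 genes were picked for their r with Calb2 over the same receptors and libraries, so higher values in the 5 follow from that choice.

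The least like were S100a5 (-0.69), Gpr162 (-0.69), Pcp4l1 (-0.67), Eno1 (-0.66), Kcnmb3 (-0.64), Scn4b (-0.61), Slc8a1 (-0.61) and Chgb (-0.60). Pcp4l1, a small IQ-motif protein, was at 121 ± 48.8 CPM in neurons of the 5 highest Calb2 receptors and at 2699 ± 147 CPM in the others (SD, n = 4). Kcnmb3, a subunit of calcium-activated potassium channels, was at 20.3 ± 6.59 against 229 ± 25.1 CPM (SD, n = 4). Slc8a1, a sodium-calcium exchanger, was at 62.3 ± 9.97 against 287 ± 23.9 CPM (SD, n = 4). As these genes were picked for a low r, lower values in the 5 follow from that choice. Of the other listed calcium genes, the highest r were those of Necab3 (0.52) and Cacna1b (0.43), and the lowest those of Hpcal1 (-0.45), Necab1 (-0.41), Atp2b1 (-0.41) and Pde1c (-0.40).

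Per barcode, Calb2 fell with S100a5 and rose with Gap43. Over 19075 Omp-positive barcodes thinned to 2000 UMIs, Spearman's rho of Calb2 with S100a5 was -0.51 ± 0.0159 and with Gap43 0.39 ± 0.0198 (SD, n = 4 libraries). When each barcode was set against the mean of its receptor (12606 barcodes), rho with S100a5 was -0.14 ± 0.00842 and with Gap43 0.45 ± 0.0323 (SD, n = 4). In Omp-only barcodes, from which Gap43-positive barcodes are left out, the values within receptors were -0.08 ± 0.00796 and 0.17 ± 0.00881 (SD, n = 4). The value with S100a5 was thus smaller in size within receptors, and that with Gap43 was not. No value without subtraction was computed for the 12606 barcodes alone, so the change cannot be credited to the subtraction. Of the 19075 barcodes, 17562 had no Gap43 UMI after thinning. For a barcode with no UMI of a gene, the value after subtraction is set by the mean of its receptor alone. These values therefore do not separate the relation within receptors from that between them. Counts of 1 barcode share its depth, and most barcodes have few UMIs of each gene.

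Barcodes with no S100a5 UMI had 4.07 ± 0.230 Calb2 UMIs per 2000, and 76.8% ± 2.42 of them had Calb2 (SD, n = 4). With 1 to 4 S100a5 UMIs the mean was 1.83 ± 0.235, with 5 to 19 it was 0.259 ± 0.0374, with 20 to 49 it was 0.0791 ± 0.0296, and with 50 or more it was 0.0259 ± 0.00310 (SD, n = 4). The means fell at each step, and the library ranges did not overlap. In barcodes with no Gap43 UMI the same 5 groups had 3.56 ± 0.227, 1.46 ± 0.240, 0.188 ± 0.0322, 0.0617 ± 0.0244 and 0.0208 ± 0.00274 (SD, n = 4), so the decline was also present there. By Gap43, barcodes with 0, 1, 2 and 3 or more UMIs had 0.531 ± 0.0613, 2.03 ± 0.210, 3.43 ± 0.158 and 5.52 ± 0.556 Calb2 UMIs per 2000 (SD, n = 4).

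**Figure D4:**
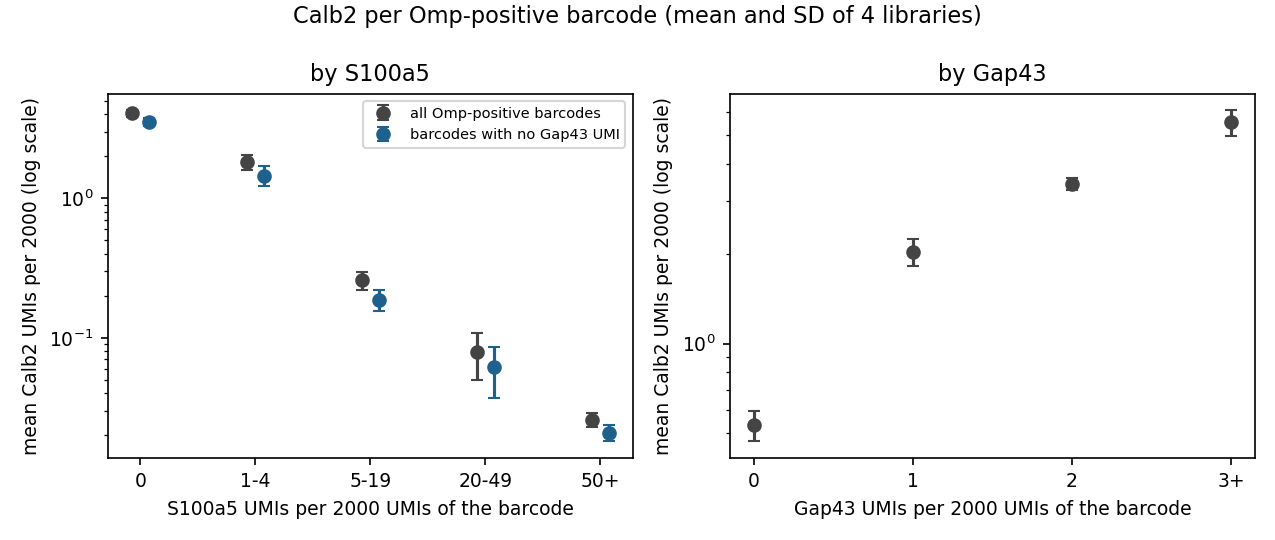
Mean Calb2 UMIs per 2000 UMIs (log axes) in Omp-positive barcodes grouped by S100a5 UMIs (left) and Gap43 UMIs (right), with the mean and SD of 4 libraries. Calb2 falls from 4.07 to 0.0259 with S100a5 and rises from 0.531 to 5.52 with Gap43.

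Stage and receptor were then combined. For each library in turn, receptors with at least 10 Omp-only barcodes summed over the other 3 libraries were split into tertiles of 123 to 135 receptors by Calb2 in those barcodes, and Calb2 was then read in the library left out. The smallest group, the lowest tertile with both genes in female 1, held 19 barcodes. In the Gap43 gate, neurons that had already chosen a receptor of the lowest tertile had 1536, 2051, 1717 and 1784 CPM in female 1, female 2, male 1 and male 2, and those of the highest tertile had 1630, 2041, 1824 and 1914 CPM. The ranges overlapped almost wholly, while the middle tertile was at 1391 ± 133 CPM (SD, n = 4). In the gate with both genes the lowest tertile had 2021, 1393, 1753 and 1517 CPM and the highest 2750, 2762, 2308 and 2289 CPM, with no overlap. In the Omp-only gate the lowest tertile had 60.0, 42.6, 38.7 and 24.7 CPM and the highest 734, 710, 673 and 628 CPM. From the gate with both genes to the Omp-only gate Calb2 was lower by a factor of 43.3 ± 13.4 in the lowest tertile, 33.6 ± 4.48 in the middle and 3.68 ± 0.194 in the highest (SD, n = 4). The tertiles were ranked by Calb2 in Omp-only barcodes, so a larger factor in the lowest tertile follows in part from the ranking. Beside a sustentacular-like background of 15.5 CPM, the part of background in its low Omp-only values was not tested. S100a5 was alike in the Gap43 gate, at 193 ± 60.5 and 180 ± 65.7 CPM in the lowest and highest tertiles, and unlike with both genes, at 5959 ± 1454 and 1378 ± 692 CPM (SD, n = 4).

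**Figure D5:**
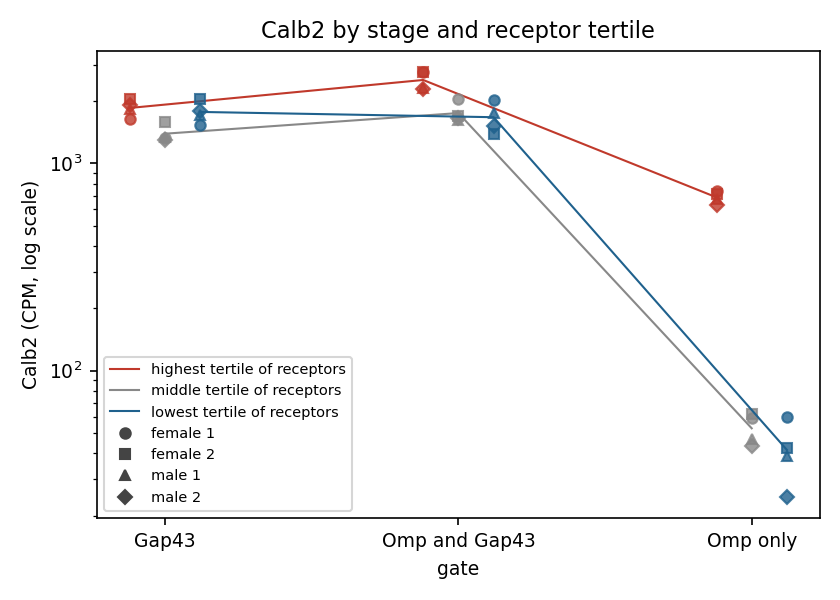
Calb2 in CPM on a log axis by stage gate, for receptors ranked in the other 3 libraries and split into tertiles, with 1 point per library and lines through the means. In the Gap43 gate the lowest and highest tertiles overlap, and in the Omp-only gate they lie at 24.7 to 60.0 and 628 to 734 CPM.

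Receptor class was compared in the Omp-positive barcodes of the 890 receptors that were not among the 63, 110 of class I and 780 of class II. Class I receptors, the smaller group of fish-like receptors, are chosen by neurons of the dorsal epithelium. Calb2 was at 221, 240, 293 and 278 CPM in class I neurons and at 473, 416, 386 and 374 CPM in class II neurons, with no overlap. Class I was lower by 0.65 on the log2 scale (log2 fold change -0.65, SE 0.07, edgeR adjusted p 1.01e-06, lower in 4 of 4 libraries). This p measures the spread between libraries, not between receptors. Of the 142 receptors described above, 11 were over 1000 CPM in Calb2, and 0 of these were class I. The classes were not matched for zone, so a difference by class was not separated from one by zone or by a few receptors. In this comparison 1865 of 13632 genes (13.7%) were higher and 2327 (17.1%) lower in class I. Barcodes with both Omp and Gap43 were 2.15% ± 1.29 of class I and 4.24% ± 0.337 of class II barcodes (SD, n = 4), and in Omp-only barcodes the difference was -0.60 (SE 0.06, edgeR adjusted p 4.87e-07).

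Of 51 other calcium genes tested between the classes, 14 were higher and 19 lower in class I, with a median log2 fold change of -0.01 over the list and over all genes. Buffers and sensors were higher in 7 of 19 and lower in 2, and targets were higher in 2 of 13 and lower in 7. Channels and transporters were higher in 5 of 19 and lower in 10. Ppp3ca (-0.37), Ppp3r1 (-0.36), Necab1 (-0.53) and Necab3 (-1.32), named after their values were seen, were lower in class I. S100a6, another small EF-hand protein, was higher at 160 ± 57.1 against 33.7 ± 9.05 CPM (SD, n = 4, log2 fold change 2.24, SE 0.12, edgeR adjusted p 1.42e-11), and Itpr1, a calcium release channel, was higher by 1.39 (SE 0.10). Cacna1a, a presynaptic calcium channel, was at 3.76 ± 0.326 against 11.9 ± 0.774 CPM (SD, n = 4, log2 fold change -1.64, SE 0.19). Of 23 axon genes, 7 were higher and 10 lower.

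Within class II, neurons of the 780 receptors were split into dorsal and ventral by Nqo1 and Ncam2. A barcode needed at least 2 UMIs of one gene and none of the other. Of 10480 class II barcodes, 1422 with 305 receptors were dorsal and 3519 with 496 receptors were ventral. The receptors were not matched between the zones, so a difference by zone was not separated from one by receptor. Calb2 was at 694, 531, 315 and 497 CPM in dorsal neurons and at 547, 535, 505 and 463 CPM in ventral neurons, so the ranges overlapped and male 1 was the lowest dorsal value. The log2 fold change of dorsal over ventral was -0.02 (SE 0.13, edgeR adjusted p 0.943). Without male 1 it was 0.19 (SE 0.06, edgeR adjusted p 0.0482). Barcodes with both Omp and Gap43 were 1.60% ± 0.621 of dorsal and 7.67% ± 0.272 of ventral barcodes (SD, n = 4). In Omp-only barcodes alone, a comparison chosen after the data were seen, Calb2 was at 599, 446, 278 and 456 CPM in dorsal and at 318, 330, 302 and 230 CPM in ventral neurons, higher in 3 of 4 libraries. There the log2 fold change was 0.59 (SE 0.15, edgeR adjusted p 0.0180). The call thus changed when barcodes with both Omp and Gap43 were left out, and also when male 1 was. The cause was not tested.

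Over all genes of the zone comparison, 1505 of 12266 (12.3%) were higher and 1770 (14.4%) lower in dorsal neurons. Of 47 other calcium genes, 13 were higher and 8 lower, or 11 and 11 without TMM scaling, with a median log2 fold change of 0.06 against -0.0013 over all genes. Buffers and sensors were higher in 7 of 17 and lower in 1, among them Necab2 at 20.2 ± 0.724 against 9.44 ± 1.33 CPM (SD, n = 4, log2 fold change 1.13, SE 0.14, edgeR adjusted p 0.000337) and Necab1 at 101.9 ± 3.801 against 75.6 ± 6.85 CPM (SD, n = 4). Cacna1a was lower in dorsal neurons by 1.70 on the log2 scale (log2 fold change -1.70, SE 0.23, edgeR adjusted p 0.000528), as it was in class I neurons.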

How the data were processed

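The authors deposited 1 matrix of raw UMI counts per library, made with Cell Ranger 6.0.2 per the file headers, while the submitters' processing notes name Cell Ranger 5.0.1 and mm10. The aligner settings are not given in the sources used here. Barcodes with under 500 genes or over 10% mitochondrial UMIs were left out, and 8.20% to 8.62% of the remaining barcodes were removed as simulated-doublet neighbours. Clusters came from 2000 variable genes, 30 principal components and leidenalg 0.10.2, and were named from marker lists by a threshold set after seeing the data. Counts were summed per library and group and tested with edgeR 4.0.16 (R 4.3.3; TMM, filterByExpr, quasi-likelihood F test, Benjamini-Hochberg, 0.05), with the library as a block in comparisons within libraries. The test over receptors used 1 common dispersion from every 40th gene. Log2 CPM used a prior count of 2. The tests were also run on simulated counts with a fixed dispersion, a simpler setting than the real libraries, and the outcome is not reported here. Python 3.11.15, numpy 2.4.6, scipy 1.17.1 and pandas 2.3.3 did the rest.

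Calb2 and the gene lists were chosen with earlier results of these data known. Genes named from the lists were up to 12 per test past the threshold with the largest change or F. To these come the 8 genes with the highest and the 8 with the lowest r with Calb2, and the 6 highest and 6 lowest receptors. Other listed genes (Calb1, Ppp3ca, Ppp3cb, Ppp3r1, Necab1, Necab3, Cacna1b, Hpcal1 and Atp2b1) were named after their values were seen. Some listed items are not reported here. Alternatives were DESeq2 1.42.0, no TMM scaling, other gates, thresholds, priors and thinning depths, doublets kept, each library left out and the replicate block. Leaving out barcodes with Cyp2g1, and using Omp-only barcodes for class and zone, were chosen after the data were seen.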

Additional observations from a re-analysis of the deposited data

Results flagged for a closer look

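Calb2 was also read in Omp-positive barcodes that the comparisons of odorant receptors did not use. Neurons with at least 3 UMIs of a Taar gene, the trace amine-associated receptors, and under 3 of any Olfr gene had 290, 626, 460 and 431 CPM of Calb2 in female 1, female 2, male 1 and male 2, a mean of 452 ± 138 CPM (SD, n = 4). They were 112 barcodes, of which 25.9% had a Calb2 UMI. Neurons with at least 3 UMIs of Gucy1b2, a soluble guanylate cyclase subunit, had 1940, 1776, 2086 and 1092 CPM, a mean of 1723 ± 440 CPM (SD, n = 4), and 90.7% of the 54 barcodes had a UMI. Summed over libraries their S100a5 was at 1888 CPM, against 15385 CPM in Taar neurons. Gucy2d neurons, with 25 barcodes, went another way, with S100a5 at 698 CPM and Calb2 at 177 ± 155 CPM (SD, n = 4). Both levels of Calb2 lay above the sustentacular-like background of 15.5 CPM.

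In barcodes named precursor-like from their cluster, Calb2 was at 17.0 ± 13.4 CPM (SD, n = 4), and the highest library, at 37.0 CPM, stood apart from the others. Its gap to the nearest was 0.909 of the whole range, beyond Dixon's 95% critical value for 4 samples, which chance passes in about 1 of 20 groups. Of 20 groups looked at, 3 passed it, the others being the barcodes of unnamed clusters (0.921) and those in no stage gate (0.834).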

How the results depend on the processing

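The lower Calb2 of class I neurons was called under every alternative run. The zone comparison, -0.02 on the log2 scale, turned to 0.19 without male 1 (edgeR adjusted p 0.0482), 0.15 with the gate thresholds doubled (0.481), 0.092 without Cyp2g1 barcodes (0.564) and 0.59 in Omp-only barcodes (0.0180), and ran from -0.15 to 0.19 with 1 library left out. The sex difference of the Gap43 gate, 0.06, turned to -0.020 with the thresholds doubled and ran from -0.033 (without female 1) to 0.15 with 1 library left out, and no setting called it. The cause was not tested. Over genes, the difference between the female libraries had an r of -0.07 with that between the male libraries in the Omp-only gate. In the Gap43 gate this r was 0.03. Counting error also lowers such an r, so it cannot show whether same-numbered libraries shared a batch, which the labels do not say. With the replicate block the sex difference was -0.23 in the Omp-only gate (SE 0.04, against 0.08 without the block, edgeR adjusted p 0.812). In the Gap43 gate it was 0.06 (edgeR adjusted p 0.877). The block gave 0 and 55 genes called in these gates, against 3 and 24 without it.

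Other counts of genes called by sex in the Omp-only gate were 219 with DESeq2, 1 with thresholds doubled, 7 with doublets kept, 1 without barcodes under 4000 UMIs and 0 to 2 with 1 library left out. In the Gap43 gate they were 63 with DESeq2, 41 with thresholds doubled, 12 without Cyp2g1 barcodes and 27 to 72 with 1 library left out. For the interaction they were 25, 1 with thresholds doubled, and 0 to 8.

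Without TMM scaling the Calb2 stage difference was -2.28. Doubled thresholds gave 1792, 2686 and 339.7 CPM in the Gap43 gate, the gate with both and the Omp-only gate. Keeping doublets gave 22.0 CPM in the Neurod1 gate and 1825 with both, and leaving out Cyp2g1 barcodes gave 1547 CPM in the Gap43 gate. Over receptors, r with S100a5 was -0.61 with at least 5 barcodes, -0.92 with at least 20 (15 receptors), -0.80 in Omp-only barcodes, and -0.72 to -0.62 with 1 library left out. In Omp-only barcodes, from which Gap43-positive barcodes are left out, r with Gap43 was 0.024. The SD between receptors was 1.96 with a prior of 0.5, and 1.71 to 1.84 with 1 library left out. Per barcode, rho with S100a5 was -0.45 in Omp-only barcodes, -0.49 with doublets kept and -0.56 thinned to 4000 UMIs, and within receptors -0.078 in Omp-only barcodes and -0.18 at 4000. With Gap43 it was 0.14 and 0.43, and within receptors 0.17 and 0.51, in the same settings. With at least 10 barcodes per library, 19 of the 63 receptors still had a library with no Calb2 UMI.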

Other observations

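Gucy2d neurons, a further group of sensory neurons marked here by at least 3 UMIs of that guanylate cyclase gene, were 25 Omp-positive barcodes. Calb2 was at 96.6, 292, 0 and 320 CPM in female 1, female 2, male 1 and male 2, and male 1 held 3 of these barcodes. A Calb2 UMI was present in 48.0% of the 25.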
